A study of Mus musculus with 9 samples.

Results

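The genes described here are those of the mouse potassium channel symbols, the Kcn family, in ventricular zone cells of newborn mice that differ in the number of wild-type Prdm16 alleles. Members were all genes whose single symbol in the probe set annotation began with Kcn, with Kcnj10, Kcne2, Kcnj8 and Kcnj13 left out by the rule. This gave 88 of the 19938 genes with a probe set of 1 symbol. Sorted by symbol, 35 were pore subunits of voltage-gated (Kv) channels, including the silent modifier subunits, and 11 were their auxiliary subunits. A further 14 were tandem pore (K2P) leak channels, 12 were inward rectifiers (Kir), and 12 were calcium-activated channels and their Slo relatives with the beta subunits. The last 4 were symbols that are not channel subunits: Kcnrg, a regulator of potassium channels, and 3 opposite-strand transcripts.

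Potassium channels set the resting potential of a cell and end its action potentials. In progenitors and glia of the ventricular zone, leak and inward rectifier channels hold the membrane near the potassium equilibrium and let glia take up potassium that neurons release. In neurons, Kv channels shape spikes, and the A-type current of Kv4 channels is carried by Kcnd pore subunits together with Kcnip (KChIP) and DPP partners. Channels of the calcium-activated class open when calcium rises after a spike.

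The cells were dissected from newborn C57BL/Ka brains and not cultured, and their amplified RNA was measured with Affymetrix arrays of the Mouse Gene ST 1.0 type. Wild-type mice, Prdm16+/+, are called WT below, the heterozygotes, Prdm16LacZ/+, HET, and the homozygotes, Prdm16LacZ/LacZ, KO, and each genotype has 3 arrays. Prdm16 is a zinc finger protein that regulates transcription in stem cells, and the labels name no Cre or promoter that would restrict the LacZ allele to a cell type. Whether the arrays of a genotype are separate animals is not stated, so the p-values cover the spread between arrays alone, and that spread may be technical.

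Prdm16 itself read between 7.23 and 7.62 in WT, between 7.00 and 7.34 in HET and between 5.69 and 6.41 in KO on the deposited log2 scale, and fell in KO against WT (log2 change -1.38, limma with Benjamini-Hochberg adjusted p = 0.010). It was not called by limma between KO and HET (-1.02, adjusted p = 0.078) or between HET and WT (-0.36, adjusted p = 0.99). Of 14 radial glia and ventricular zone markers, 12 lay above the array median on all 9 arrays, as did 13 of 15 neuronal markers and 10 of 11 interneuron markers, so markers of neurons as well as of progenitors were present among the brighter probe sets. Of the other lists used below, 8 of 12 astrocyte, 4 of 10 microglia and macrophage, and 0 of 10 ependymal markers lay above it on all 9. HET replicate 1 and KO replicate 2 had the lowest array weights, 0.547 and 0.364, with KO replicate 3 (0.679) and HET replicate 2 (0.767) next. The calls of Kcnip3, Kcnk1, Dpp10 and the cell type markers are also given without HET replicate 1 and KO replicate 2. The Prdm16 call was kept without those arrays together (adjusted p = 0.030) and lost without WT replicate 1 or 2 (adjusted p = 0.076 and 0.069), with the change between -1.58 and -1.19 in each fit tried. Of the 88 members, 69 lay above the lower quartile of all genes on every array and 10 (11.4%) lay below it on every array, where 21.2% of all genes did. In RNA from whole dissected tissue, fewer cells of a type and less RNA per cell cannot be told apart.

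Among the potassium channel genes, 1 member passed the test between KO and WT, where 0.451% of all genes did. It was Kcnip3, which encodes calsenilin, also called KChIP3 or DREAM, a calcium sensor that binds Kv4 channels and can act as a transcriptional repressor. Kcnip3 fell 1.39-fold in KO. A second member, Kcnk1, passed between KO and HET, where 0.206% of all genes did. It encodes the K2P leak channel TWIK-1, found in neurons and astrocytes, and fell 1.45-fold in that comparison. The remaining members passed in no comparison, and between HET and WT no member or other gene passed. The Kcnip3 call was lost without any of 6 single arrays and the Kcnk1 call without any of 7.

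The sequence before the annotated starts of these 2 genes is shown because they carry the calls. The windows are the 250 bases before each start in RefSeq's GRCm38.p6 table, 5′ to 3′ on the gene's strand. Kcnip3 has 3 annotated starts and Kcnk1 has 1. Capitals mark a GC box (GGGCGG) or an E-box (CAGCTG); both were searched on both strands, and the E-box is its own reverse complement.
Kcnip3, chr2:127482500-127482749, minus strand: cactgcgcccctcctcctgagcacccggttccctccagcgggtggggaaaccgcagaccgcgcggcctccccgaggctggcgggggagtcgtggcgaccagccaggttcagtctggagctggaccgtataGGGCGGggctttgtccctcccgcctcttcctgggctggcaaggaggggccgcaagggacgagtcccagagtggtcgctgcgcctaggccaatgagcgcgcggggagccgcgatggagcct
Kcnip3, chr2:127521393-127521642, minus strand: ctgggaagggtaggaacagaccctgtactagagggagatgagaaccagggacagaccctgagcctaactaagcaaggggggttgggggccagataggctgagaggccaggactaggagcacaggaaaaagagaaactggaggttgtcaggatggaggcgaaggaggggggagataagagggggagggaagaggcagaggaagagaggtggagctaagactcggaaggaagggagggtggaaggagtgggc
Kcnip3, chr2:127522095-127522344, minus strand: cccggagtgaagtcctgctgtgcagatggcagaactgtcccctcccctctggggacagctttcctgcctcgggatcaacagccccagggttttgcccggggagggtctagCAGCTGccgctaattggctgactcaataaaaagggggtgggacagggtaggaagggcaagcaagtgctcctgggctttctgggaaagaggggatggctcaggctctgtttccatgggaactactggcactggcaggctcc
Kcnk1, chr8:125994852-125995101, plus strand: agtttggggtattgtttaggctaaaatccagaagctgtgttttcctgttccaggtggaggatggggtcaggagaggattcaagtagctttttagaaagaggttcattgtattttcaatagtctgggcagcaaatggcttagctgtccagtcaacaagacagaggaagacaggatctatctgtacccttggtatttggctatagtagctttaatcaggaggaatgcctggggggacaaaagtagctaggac

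The Kcnip3 windows differed in base composition, with 71.2%, 58.0% and 60.0% G and C in the order shown. The GC-richest held a GC box 120 bases before the start, and the most upstream start had the E-box. The Kcnk1 window had 44.4% G and C and neither motif. Of the 88 members, 66 had a window in the table, with 90 windows in all. The member windows were richer in G and C, with a median of 58.8% against 52.4% over all windows. A GC box was present in 44.4% of these 90 windows and in 32.7% of all 32851 windows, the E-box in 23.3% against 13.0%, and TATAAA in 2.22% against 12.4%. The cyclic AMP response element TGACGTCA was in 0 of the 90 windows and in 1.55% of all windows. These matches describe the letters in the windows and were not tested against the expression values.

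Kcnip3 read 7.67, 7.69 and 7.63 on the WT arrays, 7.56, 7.52 and 7.38 on the HET arrays, and 7.12, 7.27 and 7.16 on the KO arrays. Every KO array lay below every HET array, and every HET array below every WT array. The means were 7.66 ± 0.03 in WT, 7.49 ± 0.10 in HET and 7.18 ± 0.08 in KO (SD, n = 3). The KO minus WT difference was -0.48 (SE 0.08, 95% interval -0.65 to -0.30, limma with Benjamini-Hochberg adjusted p = 0.032). The HET minus WT difference was -0.18 (adjusted p = 0.99) and the KO minus HET difference -0.30 (adjusted p = 0.38), neither of which passed. These comparisons share arrays, so the ordered means are a description and not separate evidence.

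The call for Kcnip3 was lost without any of 6 single arrays. The difference stayed between -0.52 and -0.45 in each of the fits tried, but the adjusted p rose to 0.17, 0.18 and 0.10 without WT replicate 1, 2 or 3, to 0.058 without HET replicate 2, and to 0.13 without KO replicate 1 and 0.13 without KO replicate 3. Without HET replicate 1 and KO replicate 2 together it was 0.050, just under the threshold, for a difference of -0.52. In a fit of WT and KO alone it was 0.080, and with every probe set tested it was 0.050, just over the threshold.

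Kcnk1 read 7.08, 7.14 and 7.08 in WT, 7.24, 7.23 and 7.30 in HET, and 6.67, 6.67 and 6.83 in KO. The KO arrays lay below all 6 others, and the HET arrays lay above all WT arrays. The means were 7.10 ± 0.03, 7.26 ± 0.04 and 6.72 ± 0.09 (SD, n = 3). The KO minus HET difference was -0.54 (SE 0.07, 95% interval -0.70 to -0.37, limma with Benjamini-Hochberg adjusted p = 0.023). The KO minus WT difference of -0.38 (95% interval -0.54 to -0.21) missed the threshold (adjusted p = 0.077), and so did the HET minus WT difference of 0.16 (adjusted p = 0.99). In order of the means, HET was highest, then WT, then KO.

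The call for Kcnk1 between KO and HET was kept without HET replicate 1 or KO replicate 3 and lost without any other single array. The difference stayed between -0.59 and -0.51, while the adjusted p was 0.067, 0.064 and 0.057 without WT replicate 1, 2 or 3. It was 0.10 and 0.085 without HET replicate 2 or 3, and 0.094 and 0.078 without KO replicate 1 or 2. Without HET replicate 1 and KO replicate 2 together it was 0.079, in a fit of HET and KO alone 0.18, and after median centring 0.063. Between KO and WT, Kcnk1 passed with array weights (adjusted p = 0.022) and after quantile normalization (adjusted p = 0.046). These 2 settings called 151 and 119 of all genes, against 90 in the main fit.

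**Figure D1:**
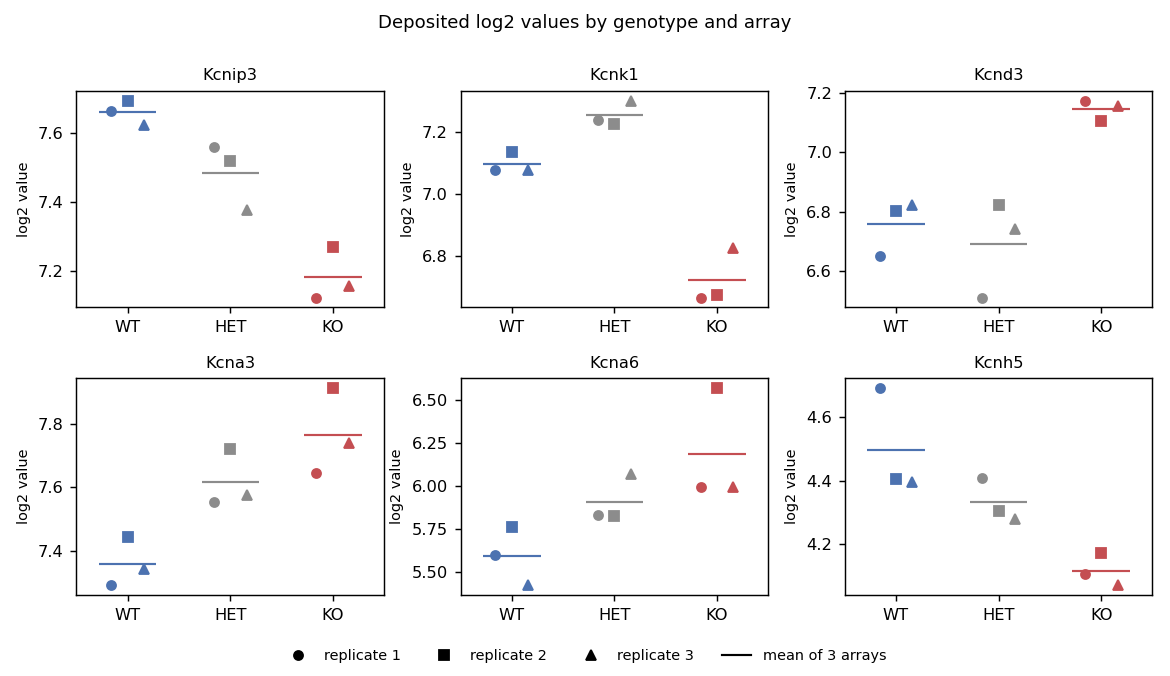
Deposited log2 values (y axis of each panel, on its own range) of 6 potassium channel genes by genotype (x axis), with 1 symbol per array and a line at the mean of 3 arrays. Kcnip3 values descend from WT through HET to KO without overlap, Kcnk1 is lowest in KO and highest in HET, and the KO arrays of Kcnd3 lie above the other 6; of these, Kcnip3 passed between KO and WT and Kcnk1 between KO and HET.

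Markers of other cell types moved alongside these genes. Of 12 astrocyte markers, 3 fell in KO against WT (Clu, Apoe and the water channel Aqp4) and 8 had an unadjusted p under 0.05, all lower. The mean level of the list was 7.31 to 7.49 on the WT arrays, 7.20 to 7.54 on the HET arrays and 6.86 to 6.98 on the KO arrays. Of 10 ependymal markers, 0 passed by limma's adjusted p and 6 had an unadjusted p under 0.05, all lower, with a list mean of 5.65 to 5.68 in WT, 5.49 to 5.64 in HET and 5.12 to 5.38 in KO. Of 11 interneuron markers, 2 rose (Sst and Npy), and the list mean was 8.26 to 8.38 in WT, 8.41 to 8.52 in HET and 8.67 to 8.80 in KO. The list means were thus lowest on the KO arrays for astrocyte and ependymal markers and highest for interneuron markers. Single markers differed from their list between KO and WT. The astrocyte markers Aldh1l1, Fgfr3, S100b and Gjb6 differed by 0.21, 0.07, 0.06 and 0.04. Of the 11 interneuron markers, 5 had an unadjusted p under 0.05, all higher, while Gad2, Dlx6 and Calb2 differed by 0.08, -0.02 and 0.00. Of 14 radial glia markers, 0 were called between KO and WT. An unadjusted p under 0.05 was found for 4 of them (Pax6, Prom1, Lhx2 and Ptprz1), all lower. Their list mean was 8.38 to 8.53 in WT, 8.23 to 8.46 in HET and 8.27 to 8.41 in KO, so the genotypes overlapped. Of all genes, 0.451% were called between KO and WT, and 6.15% had an unadjusted p under 0.05. Between KO and HET, the comparison in which Kcnk1 was called, 3 astrocyte markers fell (Clu, Apoe and Gja1) and 1 ependymal marker did (Rsph4a, adjusted p = 0.044), while 0 interneuron markers passed limma's adjusted p and 4 had an unadjusted p under 0.05, all higher. Of all genes, 0.206% were called between KO and HET, and 6.16% had an unadjusted p under 0.05. The marker lists were chosen with earlier results of these data known, and genes were named from them by their small p-values. Gja1 was in addition singled out with its values in view.

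The marker calls were also tied to single arrays, though each difference kept its sign in every fit tried. Without HET replicate 1 and KO replicate 2 together, the adjusted p between KO and WT was 0.093 for Clu, 0.057 for Apoe, 0.068 for Aqp4, 0.14 for Sst and 0.033 for Npy, so that Npy alone of these 5 kept its call. Between KO and HET it was 0.12 for Clu, 0.062 for Apoe, 0.078 for Gja1 and 0.15 for Rsph4a, and none of these 4 kept its call. Between KO and WT, all 5 lost the call when WT replicate 1 or WT replicate 2 was left out. Beside those arrays, Clu lost it without KO replicate 2 or 3, and Npy without WT replicate 3 or KO replicate 3. Aqp4 lost it without WT replicate 3, HET replicate 1 or 3, or KO replicate 1 or 3, and Sst without any single array but HET replicate 3. The highest adjusted p with 1 array left out was 0.084 for Clu, 0.063 for Apoe, 0.17 for Aqp4, 0.26 for Sst and 0.14 for Npy. Between KO and HET, Apoe kept its call without each single array, Clu lost it without WT replicate 1, HET replicate 2, or KO replicate 2 or 3 (adjusted p up to 0.12), Rsph4a without any but KO replicate 1 (up to 0.23), and Gja1 without any of the 9 (up to 0.17). The part of these shifts in the channel values was not tested.

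The median change of the members lay close to 0 between KO and WT, but a smaller share of members than of all genes lay within 0.25 of 0. The 1 called member is to be read against 0.451% of all genes called. At an unadjusted p under 0.05 stood 10 members (11.4%), against 6.15% of all genes. Of these, 7 were lower, where 2.87% of all genes were lower, and 3 were higher, where 3.28% were. The groups did not overlap for 10 members (11.4%), 5 higher and 5 lower, against 9.98% of all genes. The median change was -0.01 over the members and 0.01 over all genes, and 36 members were above 0 and 52 below. A change within 0.25 of 0 was seen for 75 members (85.2%) and for 93.3% of all genes. Between HET and WT, where 0 genes were called, these shares were 89.8% and 94.2%, so the lower share was not particular to KO. The median 95% interval reached 0.22 on either side of a member's change, which is the precision that 3 arrays per genotype gave a typical member.

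**Figure D2:**
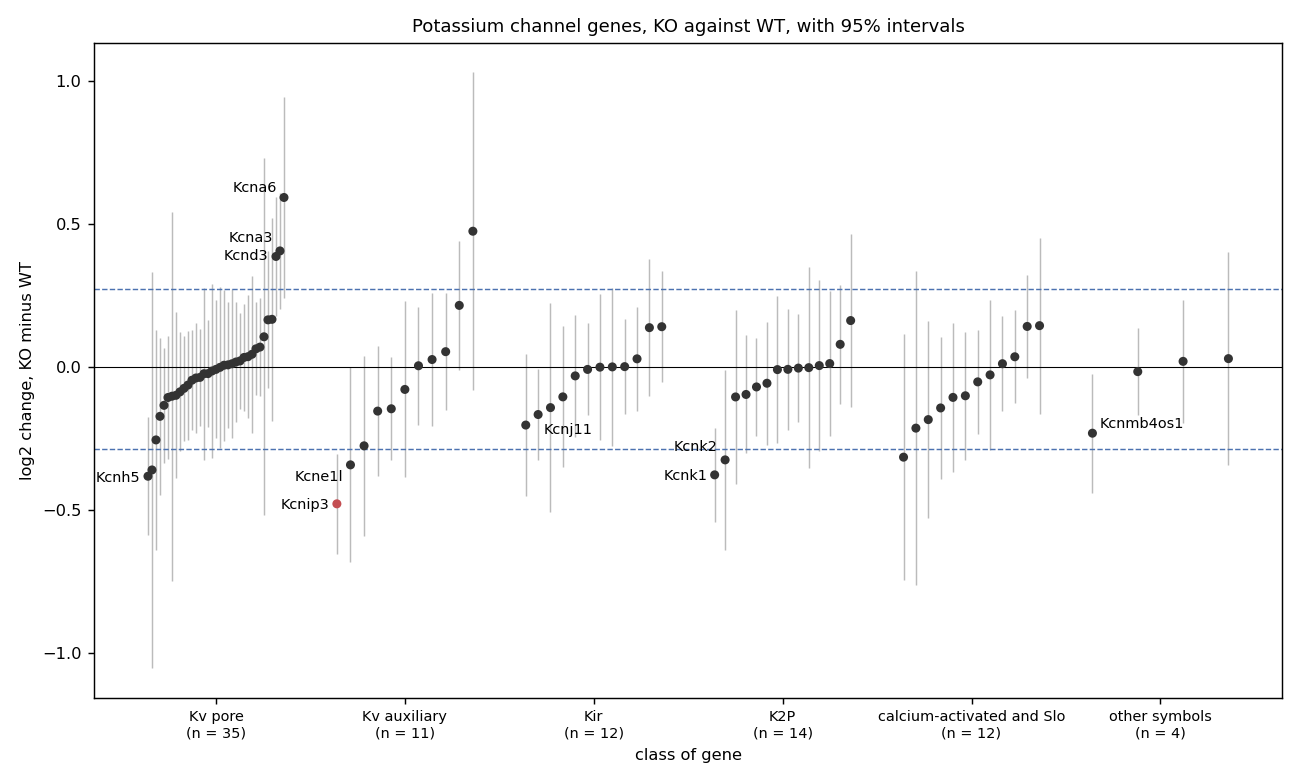
Change between KO and WT on the log2 scale (y axis) for each of the 88 members, sorted within its class (x axis), with 95% intervals as grey lines; the dashed lines enclose the middle 95% of all genes, from -0.29 to 0.27. The called member, Kcnip3, is in red, and the 10 members with an unadjusted p under 0.05 are named.

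Of the Kv pore subunits, none of the 35 was called between KO and WT by limma, against 0.451% of all genes. An unadjusted p under 0.05 was found for 4 (11.4%), against 6.15% of all genes. The median change of the class was -0.01. The 3 that were higher were Kcna3, Kcna6 and Kcnd3, and the lower one was Kcnh5. Kcna3, the Kv1.3 pore known from T cells and microglia as well as neurons, read 7.29, 7.44 and 7.34 in WT, 7.55, 7.72 and 7.57 in HET, and 7.64, 7.91 and 7.74 in KO. Every WT array was below all others, while HET and KO overlapped. Its KO minus WT difference was 0.41 (95% interval 0.20 to 0.61, adjusted p = 0.15) and its HET minus WT difference 0.26 (adjusted p = 0.99). Of the 10 markers of microglia and macrophages, 0 had an unadjusted p under 0.05 or passed limma's adjusted p between KO and WT. Of all genes, 6.15% and 0.451% did. The median change of the 10 was 0.07, and the part of these cells in the Kcna3 values was not tested.

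Kcna6, the Kv1.6 pore of neuronal delayed rectifiers, read 5.60, 5.76 and 5.42 in WT, 5.83, 5.82 and 6.07 in HET, and 5.99, 6.57 and 5.99 in KO. The WT arrays were again the lowest, and KO replicate 2 stood above the rest. The difference between KO and WT was 0.59 (95% interval 0.24 to 0.94, adjusted p = 0.28), the largest positive one among the members. Kcna3 and Kcna6 each have close relatives as neighbours on the chromosome. Beside Kcna3 on chromosome 3, Kcna2 had a KO minus WT difference of -0.10 and Kcna10 one of 0.01. Beside Kcna6 on chromosome 6, Kcna1 had -0.09 and Kcna5 had 0.04. None of these neighbours passed, and the differences between neighbours were not tested.

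Kcnh5, a pore of the ether-à-go-go family, read 4.69, 4.41 and 4.40 in WT, 4.41, 4.31 and 4.28 in HET, and 4.11, 4.17 and 4.07 in KO. The KO arrays were below all others (KO minus WT -0.38, adjusted p = 0.20), but every one of its 9 values lay under the lower quartile of genes, where a value may be background. The Kv pores with the best known neuronal roles lay near 0. Between KO and WT, Kcna1, which sets axonal excitability, differed by -0.09, and Kcnc1, the fast-spiking Kv3.1 pore, by 0.01. Kcnq3 of the M current differed by 0.16 and Kcnh2 of the ERG family by 0.03. Their adjusted p-values were between 0.94 and 1.0, and the value of Kcnq3 was 0.07 without KO replicate 2 and 0.26 without KO replicate 3.

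The Kv4 channel complex held members with differences of opposite sign. Its pores are Kcnd1, Kcnd2 and Kcnd3. Kcnd3 read 6.65, 6.80 and 6.82 in WT, 6.51, 6.82 and 6.74 in HET, and 7.17, 7.10 and 7.16 in KO. All 3 KO arrays lay above all others, while HET and WT overlapped. The KO minus WT difference was 0.39 (95% interval 0.18 to 0.59, adjusted p = 0.20) and the KO minus HET difference 0.45 (95% interval 0.25 to 0.66, adjusted p = 0.16), so neither passed. Its opposite-strand transcript Kcnd3os differed by -0.02 between KO and WT. Kcnd1 differed by -0.13 and Kcnd2, the main A-type pore of many dendrites, by 0.11, with an interval from -0.52 to 0.73. The Kcnd2 value turned to -0.06 without KO replicate 1 and was 0.25 without KO replicate 3.

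The Kcnip subunits, which bind Kv4 channels and raise their surface density, likewise differed in sign. Beside Kcnip3, the KO minus WT difference was 0.47 for Kcnip1 (95% interval -0.08 to 1.03, adjusted p = 0.88) and -0.28 for Kcnip4 (95% interval -0.59 to 0.04, adjusted p = 0.87). Kcnip1 read 7.33, 7.64 and 7.47 in WT, 7.54, 7.62 and 8.46 in HET, and 8.23, 7.49 and 8.15 in KO. Its high arrays were HET replicate 3 and KO replicates 1 and 3, so the genotypes overlapped. The Kcnip4 difference was -0.16 without WT replicate 2 and -0.17 without KO replicate 3.

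The DPP partners, which speed Kv4 gating, were measured outside the Kcn symbols, in a list of 30 potassium handling partners of which 25 were measured. Dpp10 read 5.75, 5.50 and 5.73 in WT, 5.94, 5.92 and 6.65 in HET, and 6.79, 6.55 and 6.92 in KO. The WT arrays were below all others. From WT to KO, Dpp10 rose by 1.09 on the log2 scale, or 2.13-fold, with an SE of 0.18 (limma with Benjamini-Hochberg adjusted p = 0.036) and was the 1 partner called. The difference was at least 1.01 in every fit tried, but leaving out WT replicate 1, 2 or 3 gave an adjusted p of 0.14, 0.20 or 0.12, leaving out KO replicate 1, 2 or 3 gave 0.14, 0.070 or 0.18, and leaving out HET replicate 2 gave 0.057. It was 0.081 without HET replicate 1 and KO replicate 2 together and 0.063 with every probe set tested. These settings were chosen for Dpp10 after seeing the data. Dpp6 differed by -0.16 (adjusted p = 1.0).

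**Figure D3:**
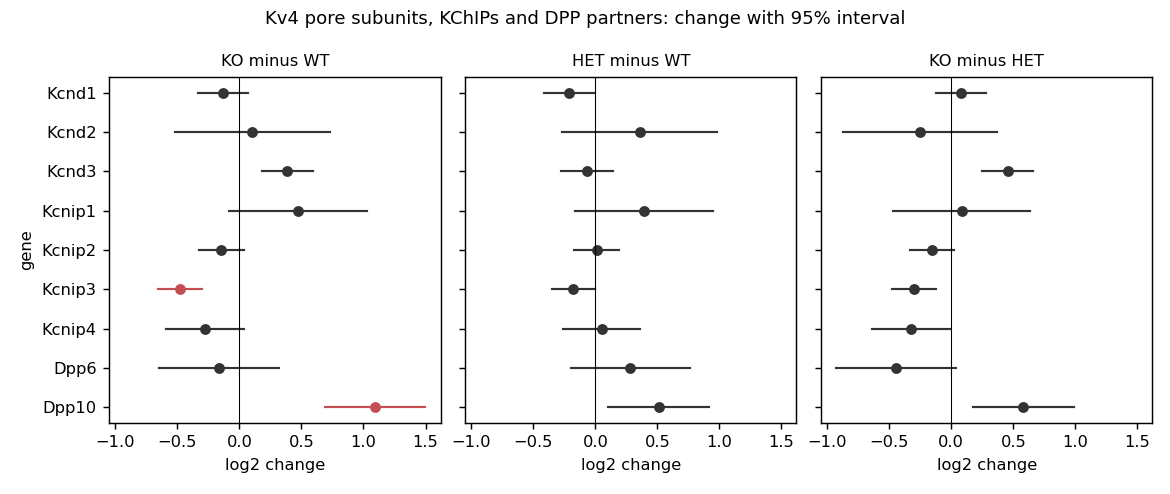
Log2 change (x axis) of the Kv4 pore subunits, Kcnip subunits and DPP partners (rows) for KO minus WT, HET minus WT and KO minus HET, with 95% intervals; calls are in red. Kcnip3 is below 0 and Dpp10 above 0 between KO and WT, Kcnd3 lies above 0 in both comparisons with KO without being called, and the panels share arrays.

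The other partners, transporters and pumps that handle potassium and channel anchors among them, had 0 further calls. Between KO and WT, 2 of the 25 had an unadjusted p under 0.05 in the higher direction and 1 in the lower. Of all genes, 3.28% were higher and 2.87% lower at that threshold, and 0.451% were called. The median change was -0.0050 over the 25. Lgi1, a secreted protein that acts on Kv1 channels, was 2.17-fold higher in KO (log2 change 1.12, 95% interval 0.51 to 1.73, adjusted p = 0.21), with 4.74, 4.78 and 4.97 in WT, 5.03, 5.71 and 6.32 in HET, and 6.36, 5.80 and 5.69 in KO. Its WT arrays were below all others and the HET arrays were widely spread. On WT replicates 1 and 2, Lgi1 lay under the lower quartile of genes (4.84 and 4.85), where a value may be background. Slc12a2, the sodium-potassium-chloride importer NKCC1, differed by -0.27 (adjusted p = 0.71), Slc12a5, the neuronal exporter KCC2, by 0.19 (adjusted p = 0.89).

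Among the remaining Kv auxiliary subunits, the largest difference was in Kcne1l, a small KCNE-type subunit. It read 7.68, 7.54 and 7.43 in WT, 7.68, 7.95 and 7.54 in HET, and 7.13, 6.95 and 7.54 in KO. KO replicate 3 was within the range of the other genotypes, and KO replicates 1 and 2 were below it. The KO minus WT difference was -0.34 (adjusted p = 0.81) and the KO minus HET difference -0.52 (adjusted p = 0.50). Kcnab3, a beta subunit of Kv1 channels, was 0.22 higher in KO than in WT without overlap (adjusted p = 0.83). Without KO replicate 2 the KO minus WT differences were -0.21 for Kcne1l and 0.13 for Kcnab3. Over the 11 auxiliary subunits, 2 (18.2%) had an unadjusted p under 0.05, both lower, against 6.15% of all genes. The median change of the class was -0.08.

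Of the 14 K2P channels, which carry the leak current, 0 were called between KO and WT by limma, against 0.451% of all genes. An unadjusted p under 0.05 was found for 2 (14.3%), Kcnk1 and Kcnk2, against 6.15% of all genes. Kcnk2, the mechanosensitive channel TREK-1, read 7.54, 7.46 and 7.19 in WT, 7.27, 7.65 and 7.26 in HET, and 6.94, 7.30 and 6.99 in KO. KO replicate 2 lay within the other genotypes. The differences were -0.32 between KO and WT (adjusted p = 0.79) and -0.32 between KO and HET (adjusted p = 0.80). Its relative Kcnk10, TREK-2, differed by 0.01 between KO and WT. The median of the K2P class was -0.01, and apart from Kcnk1 and Kcnk2 all of its members lay within 0.25 of 0.

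All 12 inward rectifiers lay within 0.25 of 0 between KO and WT, with a median of -0.0043. However, 4 of the 12 (33.3%, against 21.2% of all genes) lay below the lower quartile of genes on every array. A value there may be background, and only 4 of the 12 lay above the quartile on every array. Kcnj11, the Kir6.2 pore of ATP-sensitive channels, had the only unadjusted p under 0.05 (8.33% of the class, against 6.15% of all genes). It read 6.25, 6.33 and 6.31 in WT, 6.17, 6.13 and 6.22 in HET, and 6.12, 6.21 and 6.07 in KO. The WT arrays were above all others, and the difference between KO and WT was -0.17 (adjusted p = 0.78). Of Kcnj2, the classical strong rectifier, 8 of 9 values were below the lower quartile, and of Kcnj16, a partner of glial Kir channels, all 9 were. The KO minus WT differences of Kcnj3, Kcnj6 and Kcnj9, which form G-protein-gated channels, were 0.00, -0.01 and -0.03. All 9 values of Kcnj6 were below the lower quartile, as were 2 of the 9 of Kcnj9.

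The 12 calcium-activated and Slo genes had 0 members with an unadjusted p under 0.05 between KO and WT, against 6.15% of all genes. Of the 12, 0 were called by limma, against 0.451% of all genes, and the median was -0.08. Kcnn2, the SK2 pore of the afterhyperpolarization, read 8.96, 8.75 and 8.87 in WT, 8.76, 8.63 and 8.59 in HET, and 8.76, 8.65 and 9.10 in KO. The genotypes overlapped (KO minus WT -0.03, 95% interval -0.29 to 0.23). Kcnmb4, the neuronal beta subunit of BK channels, was higher on all KO arrays than on all WT arrays, by 0.14 (adjusted p = 0.92). The opposite-strand transcript Kcnmb4os1 was lower, by -0.23 between KO and WT and -0.25 between HET and WT (adjusted p = 0.74 and 0.99). Kcnmb3 and Kcnt2 had differences of -0.18 and -0.31, with intervals that included 0. Both sizes rested on single arrays: Kcnmb3 stood at -0.35 without KO replicate 2 and 0.01 without KO replicate 3, and Kcnt2 at -0.55 without KO replicate 1, -0.18 without KO replicate 3, -0.18 without WT replicate 3 and -0.11 with array weights. Kcnmb4 stood at 0.08 without KO replicate 2. Kcnt1, the sodium-activated Slack pore, differed by 0.01.

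Between HET and WT, 0 members were called by limma, as were 0% of all genes, and the smallest adjusted p was 0.99. An unadjusted p under 0.05 was found for 4 members (4.55%), against 4.05% of all genes. These were Kcna3, higher, and Kcnip3, Kcnd1 and Kcnmb4os1, lower. Kcnd1 read 5.50, 5.44 and 5.53 in WT, 5.37, 5.13 and 5.34 in HET, and 5.42, 5.43 and 5.22 in KO. Its WT arrays were above all others, and HET was no higher than KO in its mean. The groups did not overlap for 8 members (9.09%), 4 in each direction, against 6.85% of all genes. The median change of the members was 0.01.

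Between KO and HET, Kcnk1 was the 1 member called, where 0.206% of all genes were. An unadjusted p under 0.05 was found for 9 members (10.2%), against 6.16% of all genes, and 6 were lower and 3 higher. Of the 9, 4 were Kv auxiliary subunits (36.4% of that class): Kcnip3, Kcnip4 and Kcne1l, lower, and Kcnab3, higher. The groups did not overlap for 6 members (6.82%), against 6.54% of all genes. The comparisons of KO with WT and with HET share the KO arrays, so the members that recur in both are not independent of each other.

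The members with the widest spread lay within genotypes, and were chosen after their values were seen. The pooled SD within genotypes was 0.49 for Kcnq5, 0.45 for Kcna4, 0.44 for Kcnd2, 0.39 for Kcnip1 and 0.38 for Kcnma1. All 5 were in the top 1% of all genes by this spread, from 0.301% for Kcnq5 to 0.808% for Kcnma1. Kcnq5, an M-current pore, read 6.27, 6.29 and 6.22 in WT, 6.09, 6.59 and 7.03 in HET, and 6.08, 6.50 and 5.13 in KO. Its WT arrays were close together, HET replicate 3 was the highest array and KO replicate 3 the lowest.

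Kcna4, the A-type Kv1.4 pore, showed the same extremes, with 5.73, 5.78 and 5.77 in WT, 5.74, 6.10 and 6.97 in HET, and 5.84, 6.01 and 5.13 in KO. Kcnma1, the BK pore, read 6.78, 6.83 and 6.80 in WT, 6.67, 6.79 and 7.13 in HET, and 7.00, 6.89 and 5.88 in KO. HET replicate 3 was highest and KO replicate 3 lowest for both. The KO minus WT difference of Kcnma1 was -0.21 with all arrays and 0.14 without KO replicate 3, so its sign rested on that array. Kcnd2 was likewise highest on HET replicate 3 at 8.35, and lowest on HET replicate 1 at 6.98.

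The mean level of the 15 neuronal markers was highest on HET replicate 3 (8.71) and lay at 8.40 on KO replicate 3 and 8.39 on HET replicate 1, the lowest arrays. On the WT arrays it was 8.46 to 8.52. Of these 15 markers 0 passed in KO against WT by limma's adjusted p, against 0.451% of all genes. An unadjusted p under 0.05 was found for 2 of the 15, against 6.15% of all genes. The part of neuronal content in the spread of these channel genes was not tested.

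**Figure D4:**
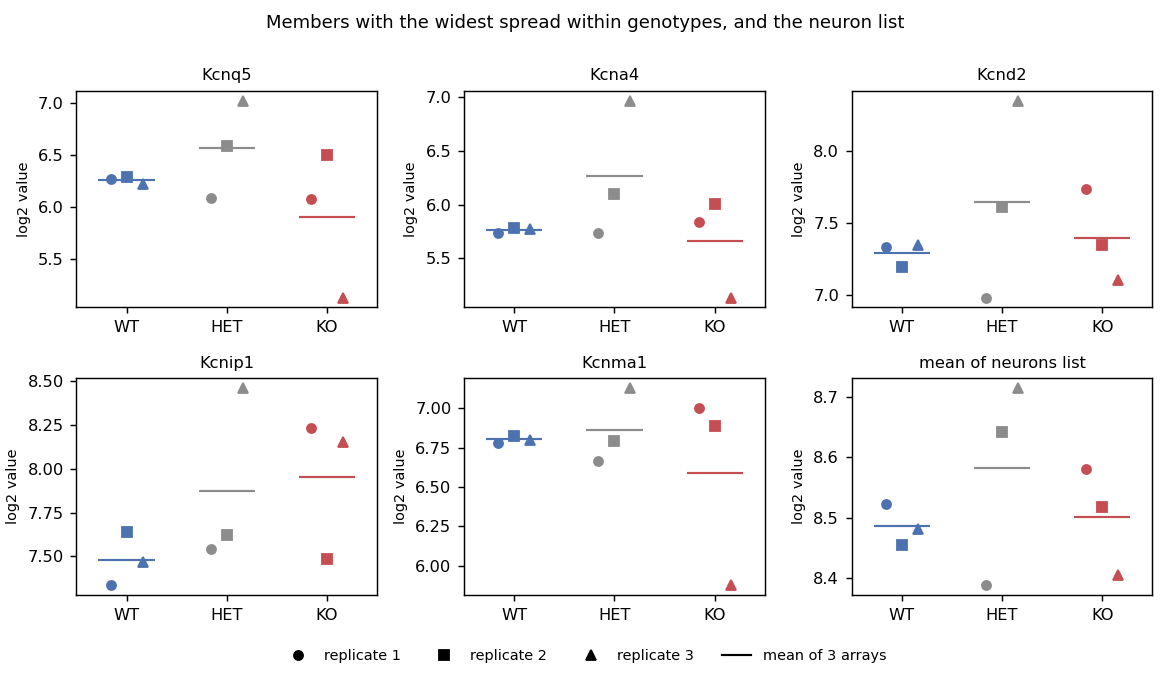
Deposited log2 values (y axis of each panel, on its own range) by genotype (x axis) for the 5 members with the widest spread within genotypes, and the mean of 15 neuronal markers in the last panel; symbols are arrays and lines are means. HET replicate 3 is the highest array in all 6 panels, and KO replicate 3 is the lowest for Kcnq5, Kcna4 and Kcnma1.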

How the data were processed

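The deposited table holds the authors' log2 values of 28940 probe sets on 9 arrays. RMA, affy and limma are named in the submitters' processing notes with no version, and the sources used here do not give the annotation behind the probe set summaries. RMA subtracts background, equalizes the arrays and fits 1 value per probe set, and it can return exactly equal values on several arrays. No detection call was used, so a low value may be background, and the number of arrays limits the precision.

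Probe sets were named from the array's annotation: 21789 had 1 symbol, 1621 had several and 5530 were not listed. The highest-mean probe set was taken for each of 19938 genes. The gene IDs of all 88 members were found in the GRCm38.p6 gene table.

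Two-sided tests used limma 3.58.1 in R 4.3.3 (lmFit, then eBayes), run on the values as deposited, with all 9 arrays in 1 fit and a mean per genotype. The p-values were adjusted by Benjamini-Hochberg over all 19938 genes, with calls at an adjusted p under 0.05. The test was checked on simulated data with independent normal noise, in which 200 genes changed by 1 on the log2 scale in KO. Between KO and WT it called 92% of these, each with the right sign, and 6 unchanged genes. Changes as small as those of the called members were not simulated. Named were members called anywhere, the up to 5 smallest p per class between KO and WT, the 5 smallest in each other comparison, members with textbook roles, the 5 smallest p among partners and up to 3 per marker list. The members and lists were chosen with earlier results of these data known. The lists not described in the results had 0 calls between KO and WT, except that 1 of 9 markers of meninges and fibroblasts, Ogn, fell (adjusted p 0.070 without HET replicate 1 and KO replicate 2, and 0.087 or 0.080 without WT replicate 1 or 2). They were the lists of meninges, the oligodendrocyte lineage, choroid plexus epithelium, endothelial cells and pericytes, and red blood cells. The list of radial glia also had 0 calls by limma, with 4 of 14 at an unadjusted p under 0.05, all lower, against 6.15% of all genes. Alternatives were other models, weights, filters, probe set rules, scalings and thresholds, and each array left out in turn.

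Same-numbered arrays of different genotypes did not deviate together (r between -0.34 and 0.06 over genes in 9 pairs), so the numbers were not taken as pairs.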

Additional observations from a re-analysis of the deposited data

How the results depend on the processing

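With all arrays 1 member was called between KO and WT, 0 between HET and WT and 1 between KO and HET. Between KO and WT, 0 members were called with the replicate block, with only the 2 groups compared, and with every probe set tested. There were 2 (Kcnip3 and Kcnk1) with array weights, quantile normalization, or an adjusted p under 0.10. In those settings 151, 119 and 125 of all genes were called, in that order, against 90 in the main setting. Between KO and HET, 0 were called with the replicate block, with only the 2 groups compared, after median centring, and without HET replicate 1 and KO replicate 2 together. Leaving out 1 array at a time gave 0 to 1 members in either comparison. Between HET and WT, 0 were called by limma in each of these settings. With the replicate block the adjusted p was 0.072 for Kcnip3 between KO and WT and 0.079 for Kcnk1 between KO and HET. The replicate block called 72 of all genes between KO and WT, against 90 without it. No named member that was called changed sign under any setting. The class medians between KO and WT lay between -0.15 and 0.04 over the 19 alternatives. All-gene counts between KO and WT were 23 to 77 with 1 array left out, and 33 with only the 2 groups in the fit; between KO and HET, 12 to 75 and 8, against 41 in the main setting. The same alternatives were added after seeing the data for Prdm16, Dpp10, Clu, Apoe, Aqp4, Gja1, Rsph4a, Sst, Npy and Ogn. With the replicate block, the adjusted p was 0.065 for Aqp4 and 0.059 for Sst between KO and WT, and 0.058 for Gja1 and 0.068 for Rsph4a between KO and HET. The causes of these differences were not tested.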

Other observations

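Exactly equal deposited values were common. Of the 88 members, 36 (40.9%) had the same value on 3 or more of the 9 arrays, against 37.7% of all genes, and 8 (9.09%) on 5 or more, against 7.70%. By class, 8 of the 12 inward rectifiers and 7 of the 14 K2P channels had such a value on 3 or more arrays. Kcna7, chosen after its values were seen, read the same on 6 arrays.

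For 3 members a further probe set was measured. The other probe set of Kcna2 differed by 0.02 between KO and WT and the one taken by -0.10. Between KO and HET these were 0.23 and -0.22, opposite in sign. The probe sets of Kcnh8 differed by -0.09 and -0.04 between KO and WT. The other probe set of Kcnma1 read 3.09 to 3.47 on all arrays, below the lower quartile of genes on each.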
